A study of Homo sapiens with 8 samples.

Results

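Complement components and their regulators were followed across the series through 9 genes, matched by symbol among the 19583 rows of the deposited table: C3, CFB, C1R, C1S, C1RL, SERPING1, CD46, CD55 and CD59. They were picked with differences between the hairpin labels in view, so those differences are given as values with no test, while the effect of oxygen and the interaction of label and oxygen were tested over the whole table. RNA came from MDA-MB-231, a line from a triple-negative breast cancer with a mesenchymal phenotype, grown in DMEM with serum. The cells carried a hairpin label of shSC or shCHD4 and were kept at 20% or 1% O2 for 24 h, giving 4 groups of 2 libraries of polyadenylated RNA. CHD4 is an ATPase of the NuRD chromatin complex, and the series title poses the question of how it bears on hypoxia-inducible factors. The labels do not say how many hairpin sequences or clones were used. They also leave unsaid whether both libraries of any group were cultured apart, so each p-value reflects library-to-library spread, which may be technical.

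Complement is a cascade of proteases that marks surfaces for clearance. In the classical route the proteases C1r and C1s, carried by C1q, cleave C4 and C2. In the alternative route C3 and factor B (the product of CFB) form a convertase that cleaves more C3, and both routes then lead to C5 and the membrane attack complex. Host cells hold the cascade in check with C1 inhibitor (the product of SERPING1), which blocks C1r and C1s, and with the membrane regulators CD46, a cofactor for cleavage of C3b and C4b, CD55, which speeds the decay of convertases, and CD59, which blocks the membrane attack complex. CD55 and CD59 are held in the membrane by a glycosylphosphatidylinositol (GPI) anchor. The soluble components are made mainly in the liver but also by many other cell types, and cytokines of the acute phase are well known to raise several of them.

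Sequencing depth lay between 24947627 and 31903585 recovered reads, with 16418 to 16861 genes detected. RNA of the targeted gene was not lower with the shCHD4 label. CHD4 stood at 298.9 and 298.2 normalised read counts in shSC and 293.4 and 304.6 in shCHD4 libraries at 20% O2, and at 279.7 and 278.2 against 299.1 and 286.9 at 1% O2. The labels overlapped at 20% O2, and at 1% O2 the shCHD4-labelled libraries were the higher ones. The log2 differences between labels were 0.0018 ± 0.042 (SE, limma, adjusted p = 0.968) and 0.071 ± 0.042 (adjusted p = 0.129). Under quantile normalisation they were 0.11 (adjusted p = 0.0201) and 0.23 (adjusted p = 9.03e-05), both higher in the libraries labelled shCHD4. Groups are therefore named by their labels, and protein was not measured. Of the line's mesenchymal markers VIM, CD44, CAV1 and AXL all were abundant, with a summed level of 6433 to 9949. CD44 was lower with the shCHD4 label, at 732 to 817 against 1248 to 1421 in shSC libraries. CAV1 was higher, at 658 to 813 against 353 to 389. VIM was at 5501 to 6856 against 3471 to 5787, and AXL at 1439 to 1504 against 1293 to 1501. The 5 luminal or receptor markers summed to 52.1 to 68.4, mostly ERBB2, and the hormone receptors ESR1 and PGR had at most 4 and 3 reads in a library. Markers of hepatocytes, the main source of complement in the body, were near 0. The 4 hepatocyte markers summed to 0.138 to 0.378 with at most 7 reads for any of them and none for APOB. The 6 myeloid markers summed to 113.3 to 126.3, up to 122.2 of it from CD68, while PTPRC and AIF1 had at most 18 and 1 reads. Markers of other cell types differed between labels: the 4 endothelial ones summed to 15.3 to 17.7 in shSC and 6.17 to 7.81 in shCHD4-labelled libraries, mostly KDR, with at most 5 reads for VWF and 4 for CDH5. The 5 fibroblast ones summed to 22.0 to 25.3 and 33.0 to 37.3, mostly COL1A1, with at most 1 read for DCN. The part of any of these markers in the label differences given next was not tested.

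C3 encodes the component on which all routes converge, and it had the widest range of the group. Its normalised read counts were 90.0 and 93.0 in shSC cells at 20% O2, 72.1 and 69.8 in shSC cells at 1% O2, 0.599 and 0.414 in shCHD4-labelled cells at 20% O2, and 0.584 and 0.636 in shCHD4-labelled cells at 1% O2. A normalised read count is the number of reads divided by 1 factor per library. All 4 shSC libraries were high and all 4 shCHD4-labelled libraries were near 0, with no overlap. In reads this was 2016 to 2503 against 12 to 18 per library. The ratio of the means was 181 at 20% O2 and 116 at 1% O2. On the log2(value + 0.5) scale used throughout, which understates the change of low genes, the difference of C3 between labels (shCHD4 minus shSC) was -6.52 ± 0.10 (SE) at 20% O2 and -6.01 ± 0.10 at 1% O2. Only 5 and 6 of the 12645 genes tested had a lower difference. C3 was picked with label differences in view, and it reached the minimum for testing through the shSC libraries alone. Its difference at 20% O2 ran from -7.50 to -5.94 over the 18 alternative analyses. Nothing is therefore read from its rank. In bulk RNA, fewer expressing cells and less RNA per cell cannot be told apart.

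CFB, the serine protease partner of C3 in the alternative route convertase, was also higher in all shSC libraries, with a smaller span. Its normalised read counts were 58.8 and 56.4 in shSC cells at 20% O2, 52.8 and 49.2 at 1% O2, 7.48 and 6.35 in shCHD4-labelled cells at 20% O2, and 7.35 and 6.26 at 1% O2. The labels did not overlap at either oxygen level. The log2 difference was -2.97 ± 0.088 at 20% O2 and -2.82 ± 0.088 at 1% O2, a ratio of means of 8.33 and 7.50. C2, the neighbouring gene that does the same job in the classical route, was too low to test, with a mean of 0.506 in shSC cells and 0.0704 in shCHD4-labelled cells at 20% O2 and at most 15 reads in a library.

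The protease genes of the C1 complex lie side by side on chromosome 12 and were lower together. C1R, which activates C1s, had 12.3 and 12.3 normalised read counts in shSC cells at 20% O2, 12.1 and 11.4 at 1% O2, 1.72 and 1.52 in shCHD4-labelled cells at 20% O2, and 1.82 and 1.45 at 1% O2. C1S, whose product cleaves C4 and C2, had 6.25 and 5.90, 5.26 and 4.97, 0.861 and 0.828, and 0.653 and 0.495 in the same order of groups. Every shSC library was above every shCHD4-labelled library for both genes. The log2 differences between labels were -2.59 ± 0.12 and -2.53 ± 0.12 for C1R at 20% and 1% O2, and -2.29 ± 0.14 and -2.39 ± 0.14 for C1S. C1S rested on 14 to 24 reads per library in the shCHD4-labelled cells.

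C1RL, a protease related to C1r by sequence, was lower by less. It had 4.43 and 5.31 normalised read counts in shSC cells at 20% O2, 7.19 and 6.49 at 1% O2, 1.83 and 1.97 in shCHD4-labelled cells at 20% O2, and 2.92 and 2.37 at 1% O2. Labels did not overlap, and within each label both libraries at 1% O2 lay above both at 20% O2. The label difference was -1.16 ± 0.13 at 20% O2 and -1.23 ± 0.13 at 1% O2. C1R and C1RL overlap on the same strand in the GENCODE annotation, and C1RL-AS1 lies antisense to C1RL. No source used here gives the strand setting, so reads may be shared among these genes. The annotation also has CFB overlapping C2, and C1S overlapping EMG1 and LPCAT3.

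SERPING1, which encodes the inhibitor of C1r and C1s, was the lowest member in shSC cells and went the other way. It had 2 and 2 reads in shSC cells at 20% O2, 9 and 13 at 1% O2, 6 and 10 in shCHD4-labelled cells at 20% O2, and 11 and 21 at 1% O2. As normalised read counts the group means ± SD (n = 2) were 0.0785 ± 0.0060, 0.379 ± 0.081, 0.285 ± 0.085 and 0.560 ± 0.26. The label groups did not overlap at 20% O2 and overlapped at 1% O2. Its mean over the 8 libraries was below the minimum of 1 for testing, so it was left out of the main fit. No fold is given against the group with 2 reads per library. Only the fit with no filter on low values tested it. There the change at 1% O2 was 0.60 ± 0.16 (SE) in shSC cells (adjusted p = 0.0302, limma). In shCHD4-labelled cells it was 0.42 ± 0.16 (adjusted p = 0.141, limma). With so few reads, no oxygen response is read from these values.

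The membrane regulators were the most abundant members and did not move as a block between labels. CD55 had 267.3 and 275.3 normalised read counts in shSC cells at 20% O2, 252.1 and 236.1 at 1% O2, 111.7 and 117.0 in shCHD4-labelled cells at 20% O2, and 119.5 and 120.9 at 1% O2. All shCHD4-labelled libraries were below all shSC libraries, with log2 differences of -1.24 ± 0.046 at 20% O2 and -1.02 ± 0.046 at 1% O2. CD59 had 594.7 and 586.0, 821.9 and 802.3, 414.6 and 396.4, and 519.6 and 535.8 in the same order. Here the labels separated within each oxygen level, with differences of -0.54 ± 0.041 at 20% O2 and -0.62 ± 0.041 at 1% O2. CD46 was the exception in direction. It had 156.7 and 164.4, 170.2 and 177.1, 185.5 and 175.8, and 205.3 and 208.4, and was higher with the shCHD4 label by 0.17 ± 0.046 and 0.25 ± 0.046, which became 0.28 and 0.37 under quantile normalisation.

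**Figure D1:**
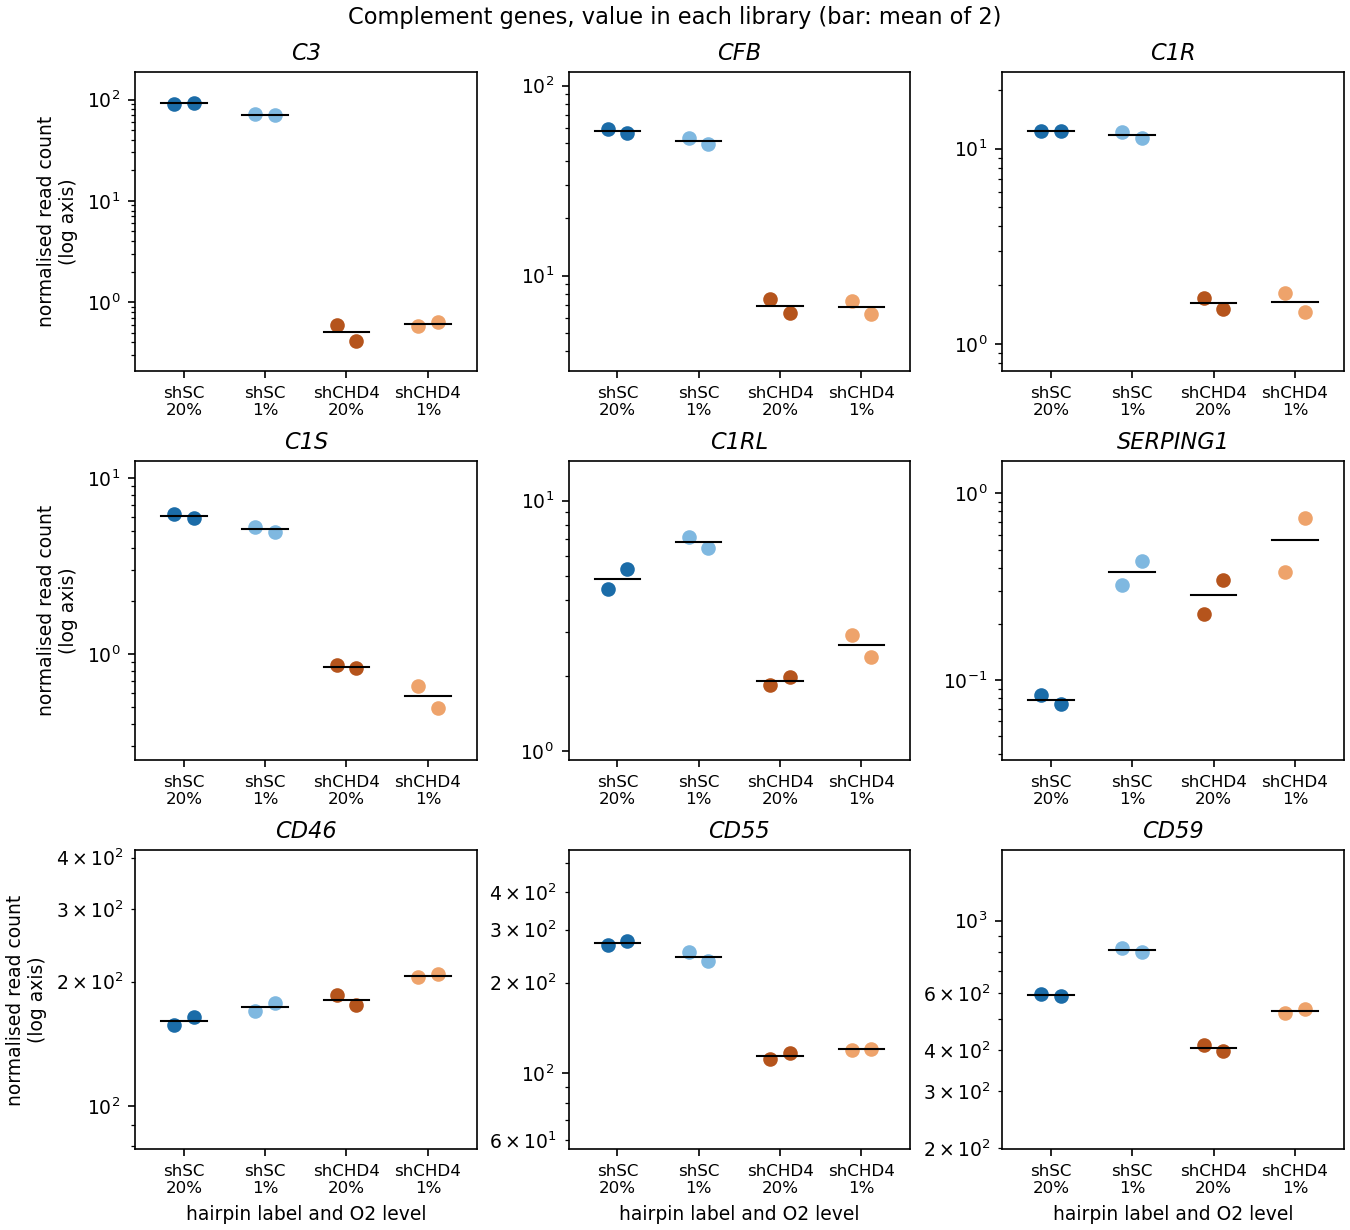
Normalised read count (log axis, its own range in each panel) of the 9 complement genes in each library, by hairpin label and O2 level. Points are libraries and bars the means of 2. C3, CFB, C1R, C1S and C1RL are lower in all 4 libraries labelled shCHD4, while CD46 runs from 156.7 to 208.4 and is highest in shCHD4-labelled cells at 1% O2.

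Of the 8 members that passed the minimum, 7 were lower and 1 was higher with the shCHD4 label at each oxygen level, with no overlap between the libraries of the labels at that level. Over all genes tested, 43.8% were lower without overlap and 42.6% higher without overlap at 20% O2, and 44.9% and 43.9% at 1% O2. Across both oxygen levels, 34.4% of genes had all 4 shCHD4-labelled libraries below all 4 shSC libraries and 32.8% had them above. In the test over all genes, 75.6% passed the threshold at 20% O2 (37.0% higher, 38.6% lower) and 77.4% at 1% O2 (38.2% higher, 39.2% lower). The median log2 difference of the 8 genes was -1.77 at 20% O2 and -1.81 at 1% O2, beside -0.0091 and -0.0067 for all genes. Since the genes were picked with these differences known, nothing is read from their counts or median.

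**Figure D2:**
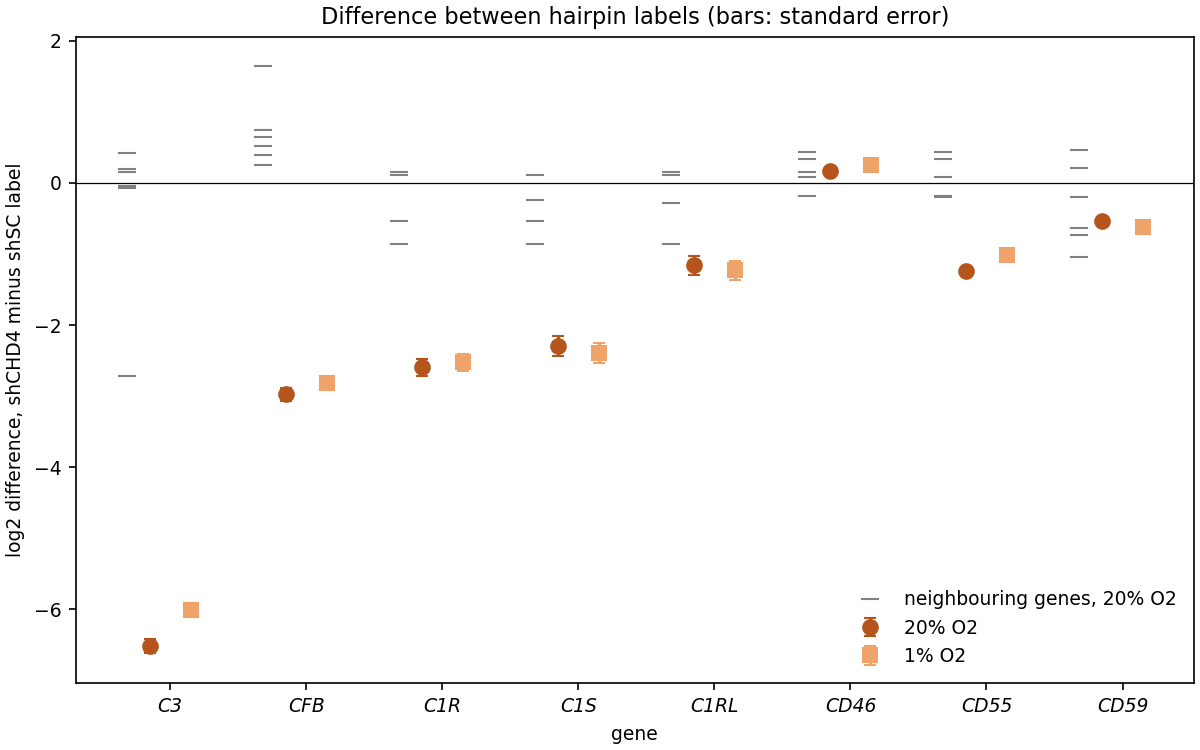
Difference between hairpin labels (shCHD4 minus shSC, log2 of value + 0.5) for the 8 complement genes above the minimum level. Circles are 20% O2, squares 1% O2, bars the standard error, and grey dashes the nearest tested genes on either side at 20% O2 that are not themselves members. C3 lies at -6.52 and -6.01 and CD46 at 0.17 and 0.25.

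Genes beside the members in the RefSeq order did not share one pattern. The 6 nearest tested genes around CFB all passed the test in the opposite direction, with log2 differences between labels of 0.25 to 1.64 at 20% O2. C2, which overlaps CFB, was too low to be among them. Its means in shSC and shCHD4-labelled cells were 0.506 and 0.0704 at 20% O2, and 0.400 and 0.156 at 1% O2. Around C3 the values ran from -2.71 for SH2D3A (adjusted p = 2.95e-11, limma) to 0.42 for SLC25A23, and GPR108, which overlaps C3 in the annotation, was at -0.047. On chromosome 12 the lower stretch took in C1S, C1R, C1RL and C1RL-AS1, at -0.86. Its flanks were LPCAT3 at 0.11 and CLSTN3 at 0.16, neither past the threshold, and EMG1 beyond LPCAT3 fell by 0.53. On chromosome 1, CD55 and CD46 lie near each other with C4BPB and took opposite signs.

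Dividing by merged exon length allowed levels to be set between genes, as an approximation. The lengths are from GENCODE, while the annotation used for counting is not given. Overlap between libraries does not measure an error in length, so the order of genes with close levels is uncertain. Per kb of exon, the order in shSC cells at 20% O2 was CD59 at 71.9, CD55 at 68.1, CD46 at 47.6, CFB at 20.1, C3 at 17.4, C1R at 4.40, C1S at 1.66, C1RL at 1.25 and SERPING1 at 0.0315, with no overlap between neighbours. In shCHD4-labelled cells at 20% O2 it was CD46 at 53.6, CD59 at 49.4, CD55 at 28.7, CFB at 2.42, C1R at 0.580, C1RL at 0.487, C1S at 0.230, SERPING1 at 0.114 and C3 at 0.0962, the last 2 overlapping. At 20% O2, C3 thus stood in the middle of the order with shSC and at its end with the shCHD4 label, and CD46 in the third place and the first. At 1% O2 with the shCHD4 label CD59 was first at 64.2 and CD46 second at 61.4, without overlap. In that group C1RL and C1R overlapped, as did SERPING1 and C1S. Ratios within a library, which do not depend on the factor per library, show the same shift. C3 over CFB per kb was 0.742 to 0.896 in the shSC libraries and 0.0355 to 0.0553 in the shCHD4-labelled libraries. CD55 over CD46 was 1.128 to 1.44 against 0.491 to 0.563, and CD59 over CD46 was 1.46 to 1.98 against 0.917 to 1.06. C1R over C1S, the protease pair, overlapped between labels at 20% O2, at 2.59 and 2.73 in shSC and 2.63 and 2.41 in shCHD4-labelled libraries. At 1% O2 it did not overlap, at 3.03 and 3.01 against 3.67 and 3.85, where C1S had 19 and 14 reads in the shCHD4-labelled libraries.

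**Figure D3:**
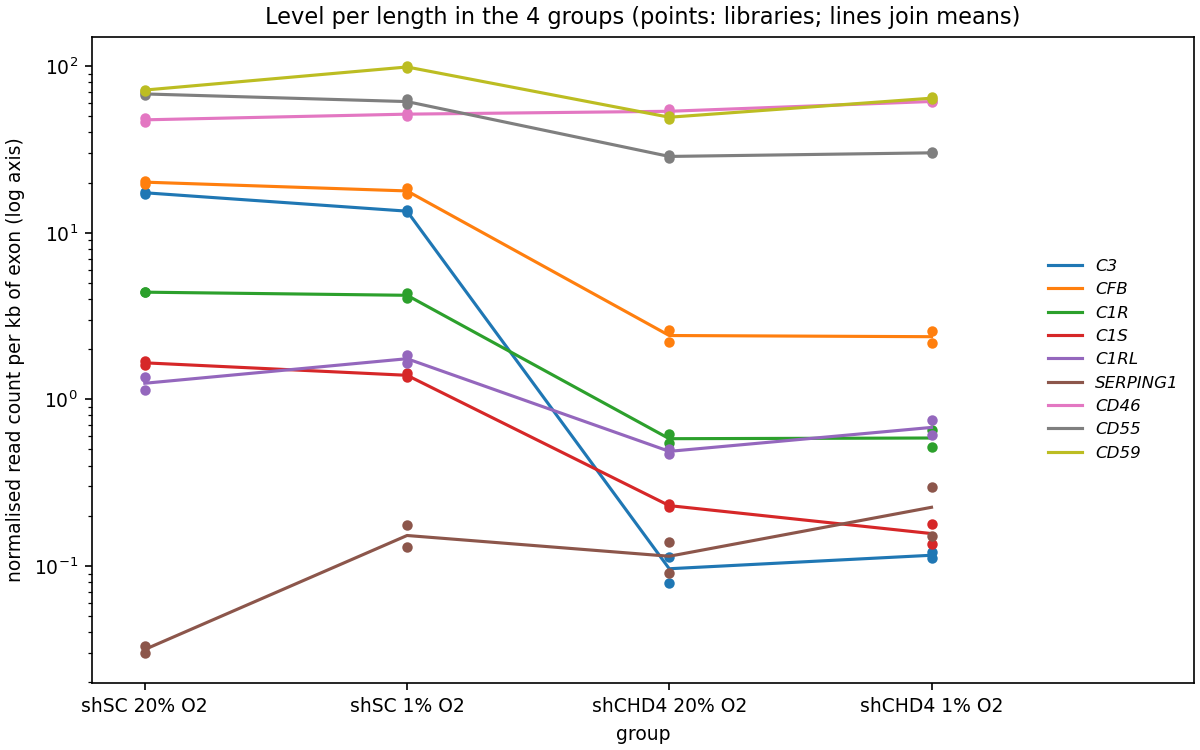
Normalised read count per kb of exon (log axis) of the 9 complement genes in the 4 groups. Points are libraries and lines join group means. C3 runs from 17.4 in shSC cells at 20% O2 to 0.0962 in shCHD4-labelled cells at 20% O2. There its libraries overlap those of SERPING1, which has a mean of 0.114. The membrane regulators stay above 28.

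The oxygen comparison was not used to pick the genes and was tested for each of the 8. In shSC cells 2 rose and 2 fell at 1% O2, beside 35.2% of all genes called in either direction, 17.4% higher and 17.9% lower. In shCHD4-labelled cells 3 rose and none fell, beside 23.0% of all genes, 12.3% higher and 10.7% lower. There C1S was lower at an unadjusted p under 0.05 (limma). C3 and C1S passed the minimum level through the shSC libraries alone, so their oxygen differences with the shCHD4 label are not read. With so few genes, nothing particular to them is drawn from these counts. The first count fell to 2 without shSC 1% O2 replicate 2 and the second to 1 without shCHD4 20% O2 replicate 2. The 2 oxygen comparisons set different libraries against each other. They share an estimate of the spread from all 8 libraries, so they are not independent tests.

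CD59 gave the clearest response. From the values above, both libraries at 1% O2 exceeded both at 20% O2 under either label. It rose by 0.46 ± 0.041 in shSC cells (1.38-fold, adjusted p = 1.31e-07, limma) and by 0.38 ± 0.041 in shCHD4-labelled cells (1.30-fold, adjusted p = 2.58e-06). Both calls held in all 18 alternative analyses, with adjusted p up to 0.00101 and 0.00453. The interaction, which asks whether the 2 changes differ, was -0.080 ± 0.058 (adjusted p = 0.508).

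C1RL also rose, by 0.45 ± 0.13 in shSC cells (adjusted p = 0.0133, limma) and by 0.38 ± 0.13 in shCHD4-labelled cells (adjusted p = 0.0456). The first call was lost on dropping shSC 20% O2 replicate 1 (adjusted p = 0.128) or shSC 1% O2 replicate 1 (0.109), with no filter on low values (0.0617) and with DESeq2 (0.0688). The second was lost in 12 of the 18 alternatives, among them the replicate block (adjusted p = 0.0506) and the fits without shSC 1% O2 replicate 1 (0.0527) or replicate 2 (0.0520), without shCHD4 20% O2 replicate 1 (0.193) or replicate 2 (0.0867), and without shCHD4 1% O2 replicate 1 (0.335). The rise in C1RL with the shCHD4 label is thus near the limit of what 2 libraries a group can show.

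C3 fell at 1% O2 in shSC cells by 0.36 ± 0.10 on the log2 scale (1.29-fold, adjusted p = 0.00916, limma). In shCHD4-labelled cells, where it had few reads, the difference was 0.15 ± 0.10 (adjusted p = 0.310) and the oxygen groups overlapped. The call in shSC cells was lost on dropping shSC 20% O2 replicate 2 (adjusted p = 0.0664) or shSC 1% O2 replicate 2 (0.0692). CD55 fell in shSC cells by 0.15 ± 0.046 (1.11-fold, adjusted p = 0.0155) and differed by 0.072 ± 0.046 in shCHD4-labelled cells (adjusted p = 0.275). Its call was lost on dropping shSC 20% O2 replicate 2 (adjusted p = 0.0675) or shSC 1% O2 replicate 2 (0.153), and with no variance trend (0.0733).

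CD46 rose in shCHD4-labelled cells by 0.20 ± 0.046 (1.14-fold, adjusted p = 0.00526, limma). In shSC cells the difference was 0.11 ± 0.046 (adjusted p = 0.0630), which passed without shSC 20% O2 replicate 2 (0.0348). The call with the shCHD4 label was lost without shCHD4 20% O2 replicate 2 (adjusted p = 0.0717), without shCHD4 1% O2 replicate 2 (0.0610) and with no variance trend (0.0523). The remaining genes did not pass under either label. For CFB the differences were -0.17 ± 0.088 and -0.022 ± 0.088, for C1R -0.060 ± 0.12 and 0.0067 ± 0.12, and for C1S -0.23 ± 0.14 and -0.33 ± 0.14, in shSC and shCHD4-labelled cells. CFB passed in shSC cells with edgeR on recovered reads (adjusted p = 0.0484). C1S passed the minimum level through the shSC libraries alone. Its means of 0.844 and 0.574 with the shCHD4 label are near the pseudocount of 0.5. There its oxygen difference ran from -0.55 to -0.22 over the alternatives. It passed only with no variance trend (adjusted p = 0.0328, limma), and no oxygen response is read from it.

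**Figure D4:**
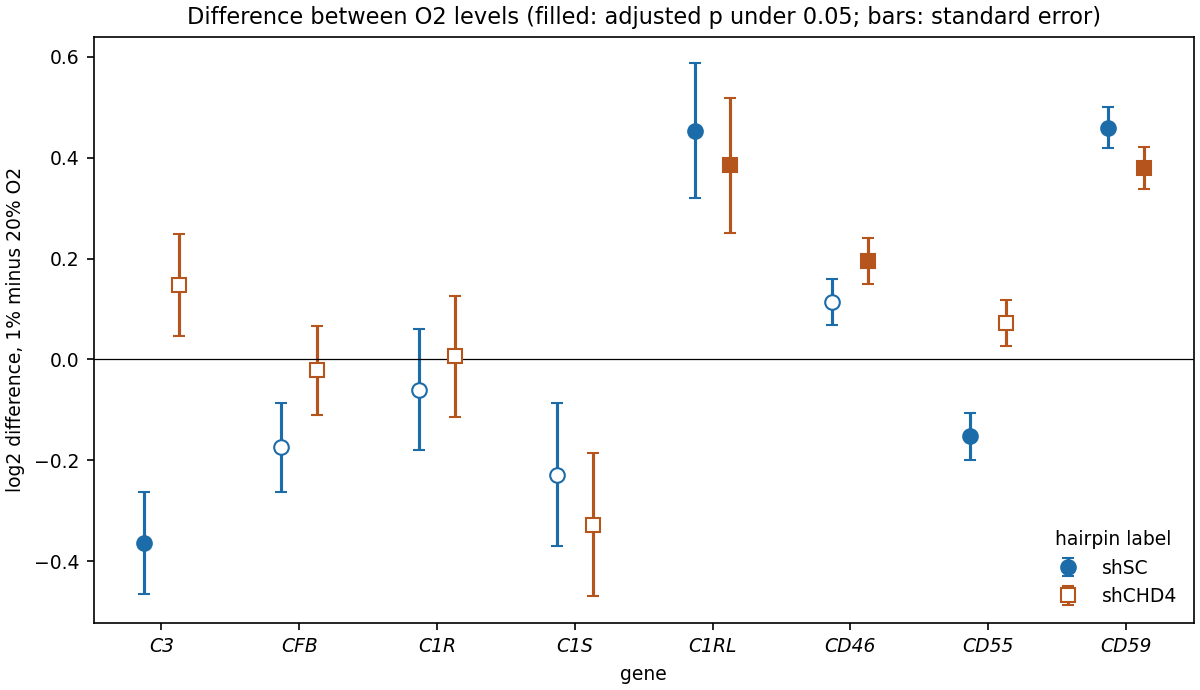
Difference between O2 levels (1% minus 20%, log2 of value + 0.5) for the 8 complement genes, by hairpin label. Bars are the standard error, and filled symbols have adjusted p under 0.05. CD59 is at 0.46 and 0.38, and C3 is at -0.36 in shSC cells and 0.15 in shCHD4-labelled cells.

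The interaction of label and oxygen passed for 1 of the 8 genes, beside 4.36% of all genes (2.21% higher, 2.14% lower). This was C3, at 0.51 ± 0.14 (adjusted p = 0.0497, limma), and the call was lost in 15 of 18 alternatives. C3 passed the minimum level through the shSC libraries alone. Its means of 0.506 and 0.610 with the shCHD4 label are about the size of the pseudocount, so no difference in its oxygen response is read from this value. CD55 was next at 0.22 ± 0.065 (adjusted p = 0.0593), and it passed under quantile normalisation (0.0305), without shSC 20% O2 replicate 1 (0.0351) and without shSC 1% O2 replicate 1 (0.0491). The other 6 lay between -0.0997 and 0.15. The lowest was C1S, which also passed the minimum level through the shSC libraries alone, so its value is not read either. The calls in shSC cells alone for C3 and CD55 do not show by themselves that oxygen acted differently under the labels.

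Promoter sequence was read for the members that the RefSeq promoter table of build GRCh38.p14 holds, which are CFB, C1R, C1RL, CD46, CD55 and CD59. C3, C1S and SERPING1 were not matched. The windows below are the 250 bases before the outermost start. They are shown for CFB, C1R, C1RL and CD59, which are the members of these with a motif match. CD46 and CD55 had no match and are not shown, although CD55 was also lower with the shCHD4 label. No link between a match and a label difference is read from the windows shown. The windows run 5′ to 3′ on the strand of the gene, and capitals mark matches to the motifs searched on both strands.
CFB, chr6:31945845-31946094, plus strand: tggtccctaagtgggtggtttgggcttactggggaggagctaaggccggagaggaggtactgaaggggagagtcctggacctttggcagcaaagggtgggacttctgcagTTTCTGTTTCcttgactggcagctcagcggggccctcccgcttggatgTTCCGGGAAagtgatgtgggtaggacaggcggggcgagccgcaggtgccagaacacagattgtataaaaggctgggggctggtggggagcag
C1R, chr12:7092446-7092695, minus strand: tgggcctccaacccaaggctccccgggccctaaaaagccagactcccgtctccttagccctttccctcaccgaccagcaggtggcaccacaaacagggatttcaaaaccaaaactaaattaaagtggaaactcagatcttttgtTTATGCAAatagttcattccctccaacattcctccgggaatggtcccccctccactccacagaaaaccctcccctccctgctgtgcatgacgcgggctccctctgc
C1RL, chr12:7109215-7109464, minus strand: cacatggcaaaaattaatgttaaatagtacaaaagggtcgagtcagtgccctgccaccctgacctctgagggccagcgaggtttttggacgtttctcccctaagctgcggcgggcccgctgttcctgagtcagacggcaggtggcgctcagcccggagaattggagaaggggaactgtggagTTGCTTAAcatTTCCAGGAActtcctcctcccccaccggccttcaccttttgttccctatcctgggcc
CD59, chr11:33736480-33736729, minus strand: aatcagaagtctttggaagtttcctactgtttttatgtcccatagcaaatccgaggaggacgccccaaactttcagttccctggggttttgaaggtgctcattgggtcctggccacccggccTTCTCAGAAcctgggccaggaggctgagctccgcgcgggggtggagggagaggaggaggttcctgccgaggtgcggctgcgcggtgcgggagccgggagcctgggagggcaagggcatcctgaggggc

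The searched motifs are those of factors known from cytokine and hypoxia signalling. They were the STAT site GAS (TTCNNNGAA), the core of the interferon response element ISRE (GAAA, any 2 bases, GAAA), the C/EBP site (TTGCNNAA), the NF-kB consensus, and the hypoxia response element cores ACGTG and GCGTG. CFB held a GAS match that begins 92 bases before the start and an ISRE match on the opposite strand that begins 140 bases before it. C1R held a C/EBP match on the opposite strand at 106 bases. C1RL held a C/EBP match at 68 bases and a GAS match at 57 bases, and CD59 a GAS match at 128 bases. No match overlapped another. CD46 and CD55 held no match, and none of the 6 windows held the NF-kB consensus, ACGTG or GCGTG, which says only that those letters are not in these windows. Of 35116 promoter windows of the same length, 6.57% held GAS, 3.02% ISRE, 9.05% C/EBP, 5.21% the NF-kB consensus, 18.5% ACGTG and 32.2% GCGTG. A match is a description of letters, and binding was not measured.

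The rest of the pathway was followed through 53 other complement genes, of which 39 had a row in the table and 8 passed the minimum. The remaining 31 had at most 35 reads in a library. C4A and C4B, near-identical copies, were listed with the same values in every group and cannot be told apart. Between labels at 20% O2, 4 of the 8 were higher and 3 lower with the shCHD4 label, and at 1% O2, 3 were higher and 2 lower, beside the 75.6% and 77.4% of all genes called. Their median log2 difference was 0.052 and -0.062. Unlike the members, these genes were not picked for a label difference, although the list was drawn up with earlier results known.

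Among those that rose with the shCHD4 label, PROS1, which encodes the anticoagulant protein S that circulates bound to C4b-binding protein, went from 34.3 ± 0.23 to 61.0 ± 2.55 normalised read counts at 20% O2 (SD, n = 2), a log2 difference of 0.82 ± 0.056 (SE, adjusted p = 1.66e-10, limma). At 1% O2 it rose by 0.88 (adjusted p = 5.89e-11). C4BPB, the beta chain of C4b-binding protein, rose by 0.34 at 20% O2 and 0.47 at 1% O2. CALR, the chaperone calreticulin, a receptor for C1q at the cell surface, rose by 0.35 and 0.29. ITGB2, the beta chain of the receptors for cleaved C3, rose by 0.20 at 20% O2 and differed by 0.091 at 1% O2 (adjusted p = 0.170, limma). ITGAM and ITGAX, the alpha chains of those receptors, had at most 5 and 2 reads in a library, so no rise of the receptors is read.

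Among those that fell, C1QBP, a mitochondrial protein that binds C1q, went from 243.5 ± 8.77 to 201.4 ± 10.5 normalised read counts at 20% O2 (SD, n = 2), a log2 difference of -0.27 ± 0.055 (SE, adjusted p = 0.000201, limma), and differed by -0.26 at 1% O2 (adjusted p = 0.000285). CLU, which encodes clusterin, an inhibitor of the terminal complex, fell by 0.50 at 20% O2 (adjusted p = 0.00308) and differed by -0.24 at 1% O2 (0.125). SUSD4, a membrane regulator with complement control repeats, fell by 0.50 at 1% O2. Its fall of 0.27 at 20% O2 (adjusted p = 0.0422) was lost in 10 of 18 alternatives. These included leaving out shSC 20% O2 replicate 1 (0.181) or replicate 2 (0.0510), shCHD4 20% O2 replicate 1 (0.0559) or replicate 2 (0.187), and shCHD4 1% O2 replicate 1 (0.0546) or replicate 2 (0.0552). C5, the target of the convertases, was tested and passed in no comparison.

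By oxygen, 2 of these 8 genes rose and 1 fell in shSC cells. SUSD4 rose by 0.50 (adjusted p = 0.00244, limma) and C1QBP fell by 0.29 (adjusted p = 0.000467). ITGB2 rose by 0.19, a call lost without shSC 20% O2 replicate 2 (adjusted p = 0.0810), shSC 1% O2 replicate 1 (0.0542) or shSC 1% O2 replicate 2 (0.0892). In shCHD4-labelled cells only C1QBP passed, with a fall of 0.28 (adjusted p = 0.00129), lost without shCHD4 1% O2 replicate 1 (0.0508). No interaction passed with limma, with 0 genes at an unadjusted p under 0.05, and none passed in any of the 18 alternatives, edgeR and DESeq2 included.

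**Figure D5:**
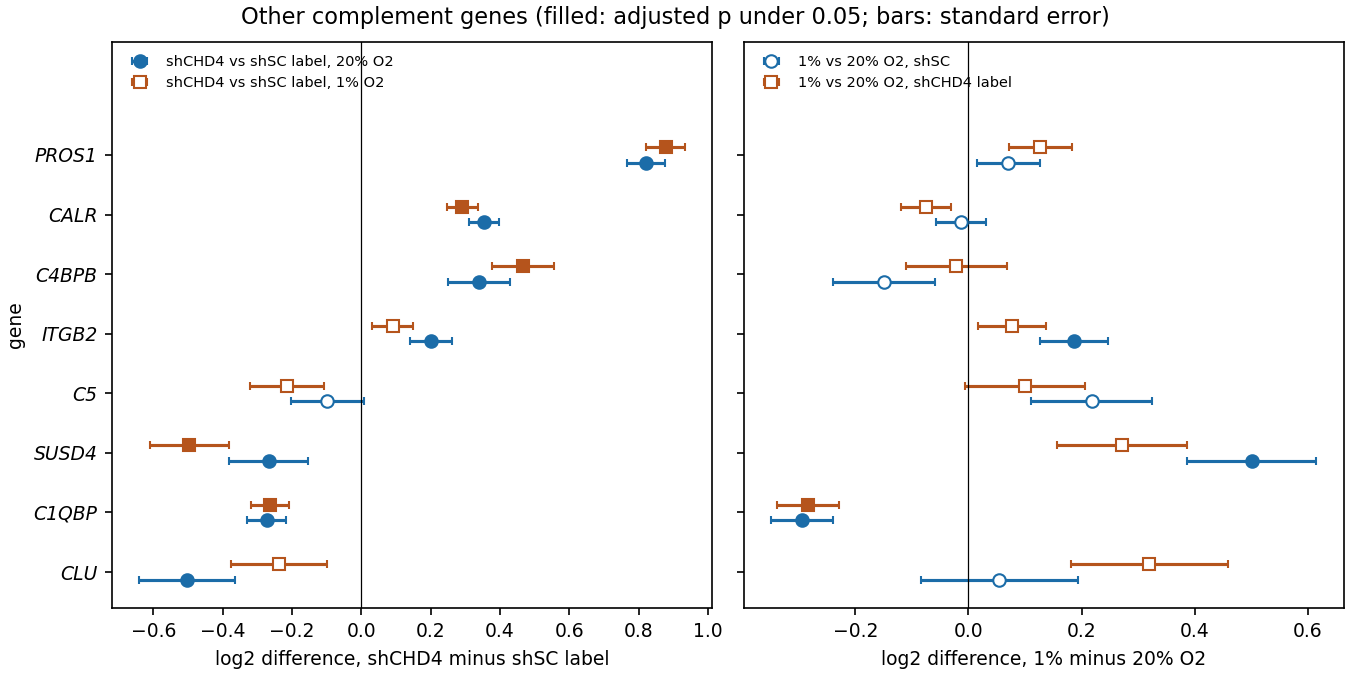
Log2 differences of the 8 other complement genes above the minimum level, between hairpin labels (left) and between O2 levels (right), with the standard error as bars and filled symbols for adjusted p under 0.05. PROS1 rose by 0.82 and 0.88 with the shCHD4 label, and C1QBP is below 0 in all 4 comparisons.

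CD55 and CD59 need a GPI anchor to stay on the cell surface, so the genes for its synthesis were listed beside them. Of 28 genes 27 were tested. At 20% O2, 13 were higher and 7 lower with the shCHD4 label (median log2 difference 0.14), and at 1% O2, 14 were higher and 6 lower (median 0.16), beside 75.6% and 77.4% of all genes called. PIGN, which adds ethanolamine phosphate to the anchor, rose by 0.94 ± 0.074 at 20% O2 (adjusted p = 1.29e-09, limma), and PIGU and PIGS, subunits of the transamidase that attaches it to proteins, rose by 0.87 and 0.57. GPAA1, another subunit of that transamidase, fell by 0.83 ± 0.062 (adjusted p = 6.64e-10). PIGN, PIGU, PIGS and GPAA1 were named for having the smallest p in this same label comparison, so their p-values are no separate support. PIGA, which catalyses the opening step of synthesis, was chosen by its oxygen response, with a rise of 0.52 in shSC cells (adjusted p = 1.87e-05), and it fell by 0.62 with the shCHD4 label at 20% O2. PIGX, part of the mannosyltransferase and also chosen by its oxygen response, fell by 0.42 at 1% O2 in shSC cells. Both were picked by their p in that oxygen comparison, so the oxygen p-value of PIGA is no separate support. By oxygen, 2 rose and 4 fell in shSC cells, and 2 rose and 2 fell in shCHD4-labelled cells, beside 35.2% and 23.0% of all genes. Nothing particular to the anchor genes is read from these counts.

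Several complement genes belong to the acute phase response, and of 19 other acute phase genes 15 had a row and 6 passed the minimum level. Some of these passed through the shSC libraries alone, so no count or median over the 6 is given. PTX3, a pentraxin that binds C1q, fell with the shCHD4 label from 323.2 ± 1.99 to 22.3 ± 0.58 normalised read counts at 20% O2 (SD, n = 2), a log2 difference of -3.83 (adjusted p = 1.78e-20, limma). The serum amyloid genes SAA1 and SAA2 went from 9.37 to 0.164 and from 5.62 to 0.0704, and SERPINA1, the gene of alpha-1-antitrypsin, from 6.45 to 0.106. Their log2 differences of -3.90, -3.42 and -3.52 depend on the pseudocount, since the lower means are below it. Over the 18 alternatives they ran from -5.84 to -3.15 for SAA1, from -6.28 to -2.63 for SAA2 and from -5.89 to -2.75 for SERPINA1. SAA1, SAA2 and SERPINA1 passed the minimum level through the shSC libraries alone, so no test of them is given. SAA1 and SAA2 are near-identical copies, so reads may be split between them. PTX3, SAA1, SAA2 and SERPINA1 were named for having the smallest p in this same label comparison at 20% O2. The p-value of PTX3 is therefore no separate support. ITIH4 went the other way, with a rise of 1.11, and it too is named after its value was seen.

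The genes whose pattern over the 8 libraries was most like each member were found from the root mean square difference of log2 values, each gene centred on its own mean. For C3 these were IL6 (0.11), CSF3 (0.22) and IL24 (0.24), all cytokine genes. IL6 differed between labels by -6.47 at 20% O2 and -6.00 at 1% O2, beside -6.52 and -6.01 for C3. This nearness follows from how IL6 was found and is no separate result. The values of C3 also depend on the pseudocount, given its few reads with the shCHD4 label. For CFB the most alike genes were DHRS3 (0.081), C9orf91 (0.11) and APOBEC3D (0.11). For C1R they were SNTB1 (0.026), IL7R (0.067) and MYC (0.088), and for C1S they were CD274 (0.10), S1PR1 (0.12) and LGR6 (0.12). C1RL was most like DUSP6 (0.086), RIMS2 (0.090) and GRB10 (0.098). Among the membrane regulators, CD46 was most like ZNF155 (0.030), ARPC5 (0.030) and PTTG1IP (0.033), CD55 most like ZNF462 (0.032), CHRDL1 (0.039) and DLC1 (0.055), and CD59 most like OXSR1 (0.037), ESAM (0.040) and PPP2R5B (0.046). No member was among the 3 nearest genes of another. These are descriptions over 8 libraries that share their labels and oxygen levels.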

How the data were processed

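Polyadenylated RNA was sequenced in 8 libraries. Per the submitters' processing notes, the tools were TopHat, featureCounts and edgeR with bcl2fastq 2.17, Picard 1.127 and FastQC 0.11.2, and the build was hg19. Annotation and strand setting: not given in the sources used here. Values in the deposited table are named FPKM but are a signal, read counts scaled by the authors with 1 factor per library and no length term: 100% were whole multiples of 1 step in each library within a tolerance of 0.01 reads. Rows for 12645 of 19583 genes with a mean of at least 1 were tested with limma 3.58.1 (R 4.3.3) on log2(value + 0.5), with 4 group means, a variance trend and Benjamini-Hochberg adjustment at 0.05, two-sided; residual degrees of freedom were 4. The design had assumed FPKM, and its test was kept. edgeR 4.0.16 and DESeq2 1.42.0 on the recovered reads were among 18 alternatives, with other pseudocounts, filters and scalings, a replicate block, and each library left out. The table has 27 date-like row names and 4 rows with repeated names, none among the members.

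The members and gene lists were chosen with earlier results of these data known. Named genes were all members, each tested gene of the wider complement list past the threshold in any comparison, up to 4 genes by label and 2 by oxygen from the GPI anchor and acute phase lists, and the 3 genes most like each member. A gene of the wider complement list is not reported here. Marker genes of 6 cell types were summed per library. Exon lengths and overlaps came from GENCODE, promoters and gene order from RefSeq GRCh38.p14. The fit was tested on simulated data.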

Additional observations from a re-analysis of the deposited data

Results flagged for a closer look

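One result met the rule for a difference between groups. The interaction of label and oxygen for C3 was 0.512 on the log2 scale (adjusted p = 0.0497, limma), since C3 fell by 0.36 at 1% O2 in shSC cells, both libraries lying below both at 20% O2, and differed by 0.15 with the shCHD4 label. The call held with a pseudocount of 1, without shCHD4 20% O2 replicate 1 and with crossed replicate numbers, and was lost in the other 15 of 18 alternatives. Adjusted p was 0.0537 with the replicate block, 0.338 with edgeR and 0.492 with DESeq2 on recovered reads, and ranged from 0.0143 to 0.492 over all 18. C3 had 12 to 18 reads in each library labelled shCHD4, with means of 0.506 and 0.610 beside a pseudocount of 0.5, and passed the minimum level through the shSC libraries alone. The value is therefore no usable measure of a difference in oxygen response.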

How the results depend on the processing

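With 2 libraries a group, calls near the threshold depend on single libraries, and genes with few reads are the least precise. With no filter on low values, which tests 19096 genes, 1920 instead of 2903 genes passed by oxygen with the shCHD4 label and 155 instead of 551 by interaction, and 14 and 11 other complement genes between labels instead of 7 and 5. With no variance trend the first 2 counts were 1815 and 155. Leaving out 1 library at a time gave 1343 to 3472 and 254 to 990. It gave 2 to 4 members by oxygen in shSC cells, 1 to 3 with the shCHD4 label and 0 to 1 by interaction, and 2 to 3 and 0 to 1 other complement genes by oxygen. The count of members by interaction was 0 with a pseudocount of 0.1, no filter, TMM factors, no variance trend, the replicate block, edgeR and DESeq2. Other complement genes by oxygen with the shCHD4 label numbered 2 with no filter, quantile normalisation or no variance trend.

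Signs reversed for differences that had not passed with limma as reported. Under quantile normalisation C1R was at -0.083 by oxygen with the shCHD4 label and -0.038 by interaction, and CD59 at 0.030 by interaction. Leaving out 1 library gave -0.13 to 0.089 for CFB and -0.12 to 0.13 for C1R by oxygen with the shCHD4 label, and by interaction -0.059 to 0.19 for C1R, -0.21 to 0.0063 for C1S and -0.20 to 0.058 for C1RL. For CHD4 it gave -0.059 to 0.00086 by oxygen with the shCHD4 label and -0.025 to 0.029 between labels at 20% O2, a difference that passed under quantile normalisation at 0.11. The label difference of C3 at 20% O2 ran from -7.50 to -5.94 over all alternatives.

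Same-numbered libraries of different groups had deviations correlated at -0.12 to 0.12, so the numbers were not taken as pairs. With the replicate block 2795 genes passed by oxygen with the shCHD4 label and 536 by interaction. The crossed pairing, chosen after seeing the data, gave 2972 and 581. The causes of these shifts were not tested.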
